A study of Mus musculus with 2 samples.

Results

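Monocytes low in C1q were 1642 of the 21266 cell barcodes kept from mouse femoral fracture callus. The library MGJ held 411 of them among 13460 kept barcodes, and MGJ2 held 1231 among 7806. They were chosen by counts of unique molecular identifiers (UMIs, each standing for 1 captured RNA molecule) in barcodes with at least 200 genes and at most 20% mitochondrial UMIs. A barcode was a member when it held at least 2 UMIs of Csf1r and at least 1 UMI of 3 or more of the 6 genes Ly6c2, Ccr2, Vcan, F13a1, Ms4a4c and Chil3, and when, per 10000 of its UMIs, it held fewer than 10 of C1qa, C1qb and C1qc together, fewer than 100 of Col2a1 and fewer than 20 of Mpo, Elane, Prtn3 and Ctsg together. These measured levels made the group, so they are described below and support nothing. Both libraries were droplet single-cell RNA-seq of callus from wild-type adult male C57BL/6J mice after femoral fracture, with no other allele or agent. The study collected callus from 5 mice at day 10 and 5 mice at day 20, but the labels give neither library a day, so the libraries are set side by side by name and never read as time points. Each is 1 library without replicates in which the mice cannot be told apart, so no test between samples was possible, and every interval below is a 95% interval for counting error alone.

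Monocytes are short-lived blood phagocytes made in the bone marrow from granulocyte and monocyte progenitors. Classical monocytes, high in Ly6C and in the chemokine receptor Ccr2, enter injured tissue and can mature there into macrophages, dendritic-like cells or, in bone, osteoclasts, while non-classical monocytes, high in Cx3cr1 and low in Ly6C, patrol the vessel wall. In fracture callus such cells belong to the inflammatory infiltrate that clears debris and releases cytokines while cartilage and bone are laid down.

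The markers of the monocyte label were genes of the rule, so finding them says nothing more. Classical genes outside it, given further on, describe the members and are no independent check of the label. Members were chosen by other classical genes, and the gene lists with earlier results of these data known. A UMI of Ly6c2, a surface antigen of classical monocytes, was found in 286 members of MGJ and 1088 of MGJ2, and one of Ccr2 in 210 and 734. Vcan, a proteoglycan of classical monocytes, was found in 314 and 781 members, F13a1, a clotting factor subunit, in 330 and 1139, and Ms4a4c in 350 and 844. Chil3, a chitinase-like protein that the rule counted as the sixth marker, was found in 245 and 764, and it was higher in mature neutrophils (2748 and 5230 CPM, its UMIs per 1000000 UMIs of the set) than in members (644 and 729 CPM). Exactly 3 markers were held by 116 and 273 members and all 6 by 49 and 170. Summed over members, Ly6c2 stood at 649 CPM in MGJ and 900 in MGJ2, Ccr2 at 108 and 130, Vcan at 401 and 346, F13a1 at 314 and 452, Ms4a4c at 311 and 162 and Csf1r, the receptor for the growth factor that keeps monocytes alive, at 350 and 442.

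The members were 3.05% of kept barcodes in MGJ (2.77 to 3.36, Clopper-Pearson) and 15.8% in MGJ2 (14.97 to 16.6). Of barcodes with at least 2 UMIs of Csf1r they were 27.6% of 1491 in MGJ (25.3 to 29.9) and 73.0% of 1686 in MGJ2 (70.8 to 75.1). Just inside the rule, 187 and 229 members held exactly 2 UMIs of Csf1r, and 13 and 4 had C1q between 5 and 10 per 10000. Just outside it, 238 and 176 barcodes met all else with 1 UMI of Csf1r, 169 and 168 met all else with 2 of the markers, and 10 and 3 had C1q between 10 and 20 per 10000. No C1q UMI at all was found in 339 and 1194 members. Granule genes alone kept out 17 and 24 barcodes and Col2a1 alone 16 and 3, and 1 barcode in each library met the gene levels but failed the filter on barcodes.

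Members held 3676387 UMIs in MGJ and 13269783 in MGJ2, with a median of 7253 and 9705 UMIs and of 1960 and 2509 genes per cell. A rule that asks for several detected genes favours deeper barcodes, and the shallowest members had 1770 and 1772 UMIs, where mature neutrophils had medians of 2300.5 and 2897. The libraries shared 19 barcode sequences. None of these was a member in both libraries, and 3 members had a barcode that also occurred in the other. No doublet caller was run, and RNA of other cells was present among the members. The 9 neutrophil markers summed to 6634 CPM in MGJ and 6730 in MGJ2, against a median of 5.34 and 3.66 per 10000 UMIs in single members and a highest value of 2760 and 2876, so a few members carried most of it. S100a8, the neutrophil calprotectin subunit, stood at 2601 and 2544 CPM over all members and at 393 and 176 CPM once 25 and 42 members with 100 or more S100a8 and S100a9 per 10000 were left out. Fibroblast and osteoblast markers summed to 3625 CPM in MGJ and 30.1 in MGJ2, and chondrocyte markers to 1470 and 83.9. B cell, T and NK cell, endothelial, erythroid and dendritic cell markers each summed to under 100 CPM, and the mast cell and basophil markers to 0.272 and 1.13 CPM, with Cpa3 and Fcer1a at 0 in both libraries. Members high in other lineages were the 51 and 58 with, per 10000 UMIs, at least 100 of the neutrophil list, at least 50 of the chondrocyte or the fibroblast and osteoblast list, or at least 10 of the B cell, T and NK cell, erythroid, endothelial or mast cell list. Leaving them out brought Col1a1 in MGJ from 936 to 83.9 CPM. Several values below are also given without those members. The C1q macrophages, neutrophils and progenitors they are set against were then kept whole.

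The first question was how monocytes low in C1q stood against the C1q macrophages of the same library, defined by at least 2 UMIs of Csf1r, C1q of at least 20 per 10000 and the same ceilings on Col2a1 and granule genes (547 barcodes in MGJ and 16 in MGJ2). A gene was called when its CPM ratio was at least 2 or at most 0.5, among genes with at least 50 UMIs over both sets and outside the rule. Called higher in members were 383 of 8429 genes in MGJ (4.54%) and 1061 of 8475 in MGJ2 (12.5%), and called lower were 745 (8.84%) and 1476 (17.4%). The 16 macrophages of MGJ2 gave a median of 6 UMIs per tested gene, and 586 and 957 genes were called there when the interval of the ratio had to exclude 1 as well. In both libraries 182 of 7692 genes were higher (2.37%) and 316 lower (4.11%). The 182 were 57.8% of the genes called higher in MGJ among those tested in both and 17.8% of those in MGJ2, and the 316 were 58.3% and 23.7%. Since C1q and the monocyte markers separated the sets, these counts describe them. Counts by gene list against C1q macrophages, given below, are to be read beside the shares of all genes tested given here.

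**Figure D1:**
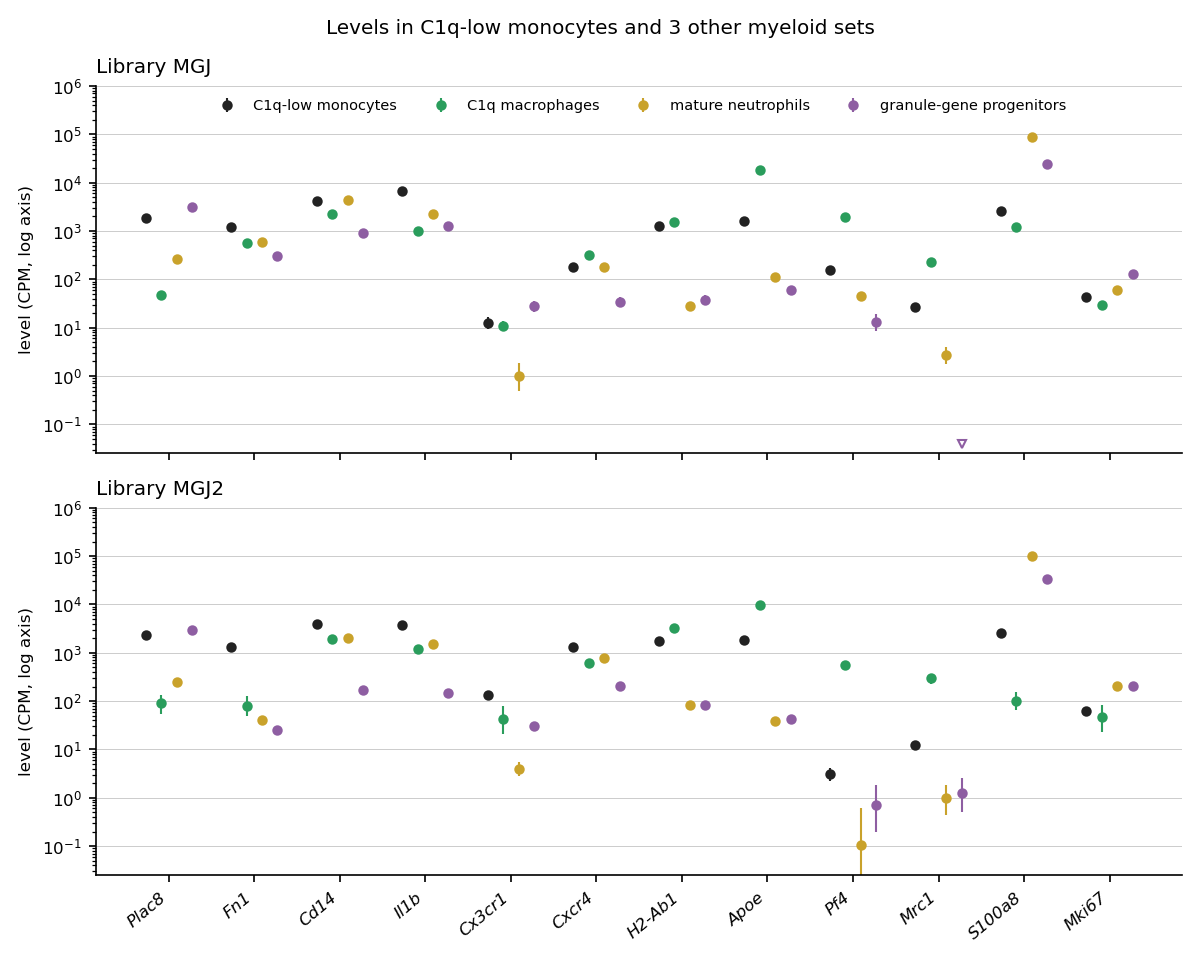
Level of 12 genes in 4 cell sets of each library, in CPM on a log axis, with exact Poisson 95% intervals for counting error; open triangles at the bottom mark genes without a UMI. Plac8 stood at 1883 and 2318 CPM in members of MGJ and MGJ2 and at 48.0 and 89.3 in C1q macrophages, while Apoe stood at 1604 and 1818 in members and at 17956 and 9784 in those macrophages.

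Genes of classical monocytes outside the rule were higher in members than in C1q macrophages. Of 15 tested, 7 were called higher and none lower in MGJ, and 12 higher and none lower in MGJ2, with a median log2 ratio of 0.98 and 1.98 against -0.12 and -0.14 over all genes tested. Plac8, a cysteine-rich protein of myeloid cells, stood at 1883 CPM in members and 48.0 in C1q macrophages of MGJ, and at 2318 and 89.3 in MGJ2, ratios of 39.2 (35.0 to 44.0) and 25.9 (17.0 to 41.9). Fn1, fibronectin, stood at 1200 and 567 CPM in MGJ and 1322 and 80.8 in MGJ2, and its MGJ level was 759 CPM without the members high in other lineages. S100a4 was 2.29 (2.22 to 2.37) and 2.93 (2.53 to 3.42) times as high in members. Thbs1, thrombospondin 1, and Cd14, the lipopolysaccharide co-receptor, were among the classical genes with most UMIs, Thbs1 at 5815 and 6159 CPM and Cd14 at 4206 and 3978 CPM. Thbs1 was 1.78 and 5.42 times and Cd14 1.85 and 2.03 times the macrophage level, so in MGJ neither reached a ratio of 2. Lyz2, lysozyme, had the most UMIs of the list and was lower in members, at 8731 against 17006 CPM in MGJ and 12668 against 16212 in MGJ2.

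Among the 15 genes with the largest ratios in both libraries, several had known roles in myeloid cells. Gpr141, an orphan receptor, stood at 124 and 4.09 CPM in MGJ and at 323 CPM against no UMI in MGJ2, ratios of 30.3 (20.6 to 46.5) and at least 25.3. F10, coagulation factor X, stood at 713 and 108 CPM in MGJ and 920 and 55.3 in MGJ2, ratios of 6.57 (6.05 to 7.15) and 16.6 (9.72 to 31.2). Ptger2, a prostaglandin E2 receptor, was 7.08 (5.23 to 9.74) times as high in MGJ and at least 10.7 times in MGJ2, and Asns, asparagine synthetase, 13.9 (8.77 to 23.0) and 12.8 (2.29 to 506) times. Gpr141, F10 and Ptger2 were lower in mature neutrophils than in members, Gpr141 at 38.3 and 88.1 CPM there. Slpi, a secretory protease inhibitor, was 10.3 (9.90 to 10.7) times as high in MGJ and stood at 833 CPM against 1 UMI in MGJ2, but it was higher still in neutrophils, at 6129 and 1968 CPM. Ifitm6, Cd177, a neutrophil surface protein, Mmp8, a neutrophil collagenase, and Dgat2, a triglyceride-synthesis enzyme, were likewise higher in neutrophils, Ifitm6 at 914 CPM there and 125 in members of MGJ. Without the members high in other lineages Mmp8 stood at 115 and 71.9 CPM and Cd177 at 19.8 and 80.1, against 123 and 87.9 and against 25.6 and 90.8 with them. Of the neutrophil markers 7 of 8 in MGJ and 8 of 9 in MGJ2 were themselves called higher in members than in C1q macrophages. Without the members high in other lineages 1 of 8 was higher and 6 lower in MGJ, and 1 of 8 higher and 1 lower in MGJ2. Those members were chosen partly by this list, while the C1q macrophages were kept whole, with 3054 CPM of it in MGJ. The change in these counts follows in part from that choice. Hopx, Dmkn, 1700012B09Rik and the histone gene Hist1h1e were also among the 15 genes with the largest ratios, with ratios between 6.02 and 12.7 over both libraries.

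Genes of resident macrophages were lower in members. Of 13 tested in MGJ 11 were called lower and none higher, and of 10 tested in MGJ2 9 were called lower and none higher, with a median log2 ratio of -3.11 and -3.07. Apoe, a lipid carrier, stood at 1604 CPM in members and 17956 in C1q macrophages of MGJ, and at 1818 and 9784 in MGJ2, ratios of 0.0893 (0.0870 to 0.0917) and 0.186 (0.178 to 0.194). Mrc1, the mannose receptor, stood at 26.9 and 232 CPM in MGJ and 12.1 and 294 in MGJ2, and Pf4, the chemokine platelet factor 4, at 158 and 1945 CPM in MGJ and 3.09 and 553 in MGJ2. Selenop, a selenium carrier, was 0.0825 (0.0724 to 0.0937) and 0.0748 (0.0662 to 0.0847) of the macrophage level. Adgre1, which encodes the pan-macrophage antigen F4/80, stood at 103 and 355 CPM in MGJ and 154 and 485 in MGJ2. Folr2, the folate receptor of resident macrophages, was at 0.544 and 0.0754 CPM in members, and Vsig4 had no UMI in members of either library. Outside the list, the genes furthest below the macrophages in both libraries included Gdf15, a stress cytokine, with ratios of 0.0764 (0.0560 to 0.102) and 0.0592 (0.0472 to 0.0747), Ms4a7, a macrophage membrane protein, with 0.104 and 0.0250, Fabp5, a fatty acid carrier, with 0.132 and 0.0874, and Vcam1, an adhesion molecule, with 0.178 and 0.0159. Pltp, Lpl, Hpgds, Tmem37, Cd72, Blnk, Gramd1b and Fbxo32 made up the rest, with ratios from 0.0245 to 0.175.

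**Figure D2:**
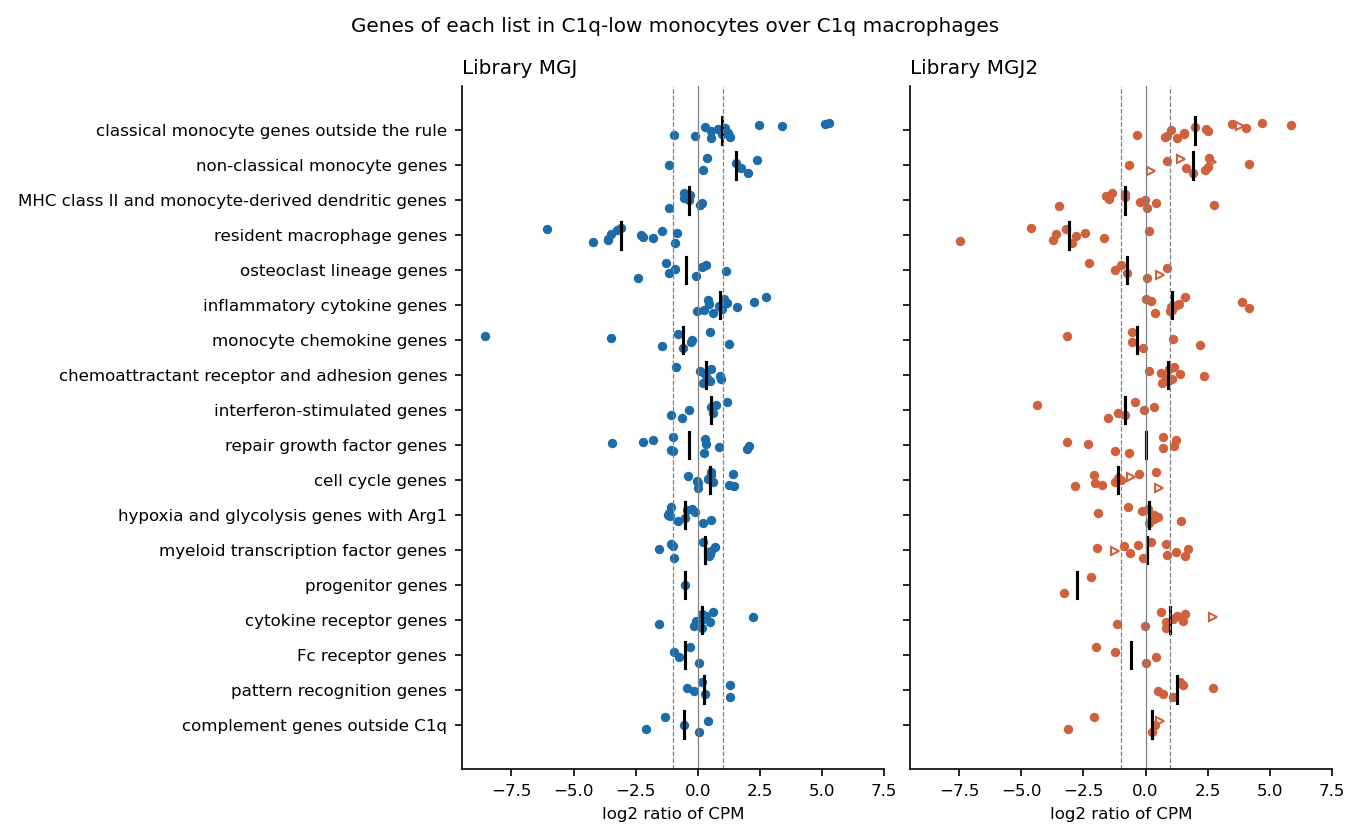
Log2 ratio of the members' CPM over that of C1q macrophages for each tested gene of the gene lists, 1 panel for each library; black bars are list medians, open triangles are bounds from a set without a UMI, and dashed lines mark a 2-fold difference. Resident macrophage genes lay lowest, with medians of -3.11 and -3.07, and classical monocyte genes had medians of 0.98 and 1.98.

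Inflammatory cytokine genes were higher in members than in C1q macrophages, 5 of 12 called higher in MGJ and 7 of 11 in MGJ2 and none lower in either. Il1b, which encodes interleukin-1 beta, stood at 6677 CPM in members and 1004 in C1q macrophages of MGJ, and at 3668 and 1208 in MGJ2, ratios of 6.65 (6.47 to 6.83) and 3.04 (2.70 to 3.42). Cxcl3, a neutrophil-attracting chemokine, stood at 3214 and 1074 CPM in MGJ and 1280 and 72.3 in MGJ2. Ptgs2, the inducible cyclooxygenase, was 2.26 (2.19 to 2.33) and 2.52 (2.14 to 2.98) times as high in members, and Il6 4.84 (3.95 to 5.96) and 14.6 (2.61 to 577) times. The chemokine Cxcl2 had the most UMIs of the list, at 17899 and 5339 CPM, and was 1.81 and 2.03 times the macrophage level. Tnf was not called, with ratios of 1.34 (1.22 to 1.48) and 1.17 (0.737 to 1.98), and neither was the interleukin-1 antagonist Il1rn, with 0.975 and 1.30.

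Monocyte chemokine genes were divided. In MGJ 3 of 9 were lower and 1 higher, and in MGJ2 1 of 6 was lower and 2 were higher. All genes tested gave 8.84% lower and 4.54% higher in MGJ and 17.4% lower and 12.5% higher in MGJ2. Ccl8 stood at 1.36 CPM in members and 511 in C1q macrophages of MGJ, a ratio of 0.00266 (0.000864 to 0.00622), and Ccl7 at 160 and 279 CPM in MGJ and 32.9 and 294 in MGJ2. Cxcl10, an interferon-induced chemokine, was the gene called higher in both, at 53.0 against 21.96 CPM in MGJ, a ratio of 2.42 (1.94 to 3.02), and at 19.1 CPM against 1 UMI in MGJ2. That 1 UMI allows up to 23.7 CPM in the macrophages of MGJ2, so the call there is weak. Only 1 of the 6 genes was higher in MGJ2 when the interval of the ratio had to exclude 1 as well. Ccl2 was not called, with ratios of 1.42 and 0.676. Of the osteoclast lineage genes 3 of 8 and 2 of 7 were lower, and Ocstamp was higher in MGJ, at 13.3 against 6.06 CPM. Tnfrsf11a, which encodes the receptor RANK, stood at 19.0 and 46.0 CPM in MGJ and 14.996 and 72.3 in MGJ2, and Acp5, tartrate-resistant acid phosphatase, at 181 and 342 CPM and at 93.5 and 217. The direction of Acp5 turned in MGJ2, to a log2 ratio of 1.52, when barcodes with markers of another lineage were left out of both sets, which left 8 C1q macrophages there. Ctsk, the osteoclast protease cathepsin K, was not called, at 196 and 176 CPM in MGJ and 38.4 and 21.3 in MGJ2.

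Of the repair growth factors 4 of 12 were lower and 2 higher in MGJ, and 3 of 8 lower and 2 higher in MGJ2. Without the members high in other lineages 6 were lower and none higher in MGJ. The C1q macrophages were kept whole there, with 2822 CPM of fibroblast and osteoblast markers, so RNA of such cells left 1 side of the ratio only. Pdgfa, a platelet-derived growth factor chain, stood at 50.3 CPM in members against 236 in C1q macrophages of MGJ and at 34.4 against 311 in MGJ2, and Pdgfb at 4.62 against 50.4 and at 27.3 against 136. Pdgfc, with too few UMIs to be tested, stood at 1.36 against 6.66 CPM in MGJ and at 0.0754 against 21.3 in MGJ2. Igf1, insulin-like growth factor 1, had a ratio of 0.287 (0.234 to 0.351) in MGJ, where its level was 30.7 CPM with and 2.39 without the members high in other lineages. Osm, oncostatin M, and Tgfb1 were the higher genes in MGJ2, with ratios of 2.19 (1.65 to 2.96) and 2.30 (1.85 to 2.91), and were not called in MGJ, with 1.27 and 1.21. Ereg, an epidermal growth factor receptor ligand, and Bmp2 were called higher in MGJ. Ereg stood at 28.8 against 7.27 CPM, but at 10.6 CPM without the members high in other lineages, which is not a 2-fold difference. Bmp2 stood at 24.5 against 5.91 CPM, but at 3.75 CPM without those members. Spp1, osteopontin, had ratios of 0.501 and 0.423 and was higher in mature neutrophils (7352 and 3973 CPM) than in members (2995 and 290 CPM). Of the hypoxia and glycolysis genes 4 of 11 were lower in MGJ, among them Arg1, arginase 1, at 189 against 404 CPM. Arg1 was not 2-fold lower without the members high in other lineages, at 209 CPM, and with 2 or more markers in the rule its log2 ratio was 0.035. In MGJ2 1 of 9 was lower, Hk2, hexokinase 2, at 67.3 against 255 CPM, and 1 higher, Ero1l, an oxidoreductase of the endoplasmic reticulum, at 103 against 38.3 CPM, a ratio of 2.68 (1.41 to 5.88). Each was 11.1% of the list in MGJ2, no more than over all genes tested. Those gave 4.54% higher and 8.84% lower in MGJ and 12.5% higher and 17.4% lower in MGJ2.

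Non-classical monocyte genes were higher in members, 4 of 7 called in MGJ and 8 of 11 in MGJ2, with 1 lower in MGJ and none in MGJ2. Itgal, an adhesion integrin subunit, stood at 49.5 and 17.0 CPM in MGJ and 228 and 12.8 in MGJ2, and Pou2f2, a transcription factor of Ly6C-low monocytes, at 68.5 and 20.4 CPM and at 393 and 68.1. Treml4 was 5.20 (3.83 to 7.15) times as high in MGJ and at least 6.39 times in MGJ2. The defining receptor of these cells, Cx3cr1, had a ratio of 1.16 (0.784 to 1.69) in MGJ, where its level was 12.8 CPM, and of 3.07 (1.66 to 6.41) in MGJ2, where it was 131 CPM. Fcgr4, an IgG receptor of non-classical monocytes, was the lower gene in MGJ, with a ratio of 0.444 (0.376 to 0.521). Cxcr4, the receptor that holds cells in marrow, stood at 176 against 320 CPM in MGJ, a ratio of 0.550, and at 1338 against 600 in MGJ2, a ratio of 2.23, so the libraries differed in direction.

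Major histocompatibility complex (MHC) class II genes, which present antigen, were close to or below the macrophage level. None of 6 tested in MGJ was called, and in MGJ2 3 of 7 were called lower and none higher. With the dendritic genes of the same list, 1 of 7 was lower in MGJ, and 4 of 11 were lower and 1 higher in MGJ2. Cd74, the class II invariant chain, had ratios of 0.776 (0.758 to 0.794) and 0.555 (0.531 to 0.581), and H2-Aa of 0.688 (0.664 to 0.713) and 0.389 (0.366 to 0.413). The higher gene of the list in MGJ2 was Flt3, a receptor of dendritic cell precursors, at 28.6 CPM against 1 UMI. Itgax, which encodes CD11c, was lower in both, at 11.7 and 26.5 CPM in MGJ and 6.03 and 68.1 in MGJ2, but in MGJ it did not reach a 2-fold difference without the members high in other lineages, with a log2 ratio of -0.96. Cell cycle genes differed between the libraries, 3 of 12 higher and none lower in MGJ and none higher and 6 of 11 lower in MGJ2. The 3 higher in MGJ were Top2a, Tyms and Rrm2, and without the members high in other lineages none was called, with log2 ratios of 0.97, 0.90 and 0.77. Top2a, topoisomerase 2 alpha, stood at 64.5 and 24.2 CPM in MGJ and at 46.4 and 55.3 in MGJ2, and in MGJ its ratio fell below 1 when barcodes with markers of another lineage were left out of both sets. Of 5 complement genes outside C1q 2 were lower in each library, C3ar1 with ratios of 0.234 and 0.116 and Cfp, properdin, with 0.395 and 0.239.

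Receptors and transcription factors of the myeloid lineage were mostly not called in MGJ. Over all genes tested 4.54% were higher and 8.84% lower in MGJ, and 12.5% higher and 17.4% lower in MGJ2. Of 10 cytokine receptor genes 1 was higher and 1 lower in MGJ and 5 higher and 1 lower in MGJ2. Il1r2, the decoy receptor for interleukin-1, was the higher gene in both, at 175 and 37.1 CPM in MGJ and 82.6 CPM against no UMI in MGJ2, a ratio of 4.72 (4.07 to 5.49) and of at least 6.47. It was also higher in mature neutrophils than in members, at 502 and 555 CPM. Tgfbr1, a receptor for transforming growth factor beta, was the lower gene in both, with ratios of 0.337 and 0.450. Csf2rb, a shared receptor subunit for granulocyte-macrophage colony-stimulating factor, had ratios of 1.12 and 2.98. Of the transcription factors 3 of 10 were lower in MGJ and 1 of 12 lower and 3 higher in MGJ2. Cebpb was 1.43 and 3.24 times the macrophage level, and Cebpa was 0.338 (0.260 to 0.433) and 0.254 (0.173 to 0.388) of it. Spi1, the master factor PU.1, was not called, at 458 and 402 CPM in MGJ and 425 and 370 in MGJ2. The 10 chemoattractant receptor and adhesion genes gave no call in MGJ and 4 higher in MGJ2, the 6 pattern recognition genes 2 and 4 higher, and the 4 Fc receptor genes none and 2 lower. When the interval of the ratio had to exclude 1 as well, 2 of the pattern recognition genes and 3 of the chemoattractant receptor and adhesion genes were higher in MGJ2. Interferon-stimulated genes gave 1 higher and 1 lower of 7 in MGJ and 3 lower of 7 in MGJ2.

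Barcodes that met every condition but the ceiling on C1q numbered 106 in MGJ and 6 in MGJ2. Only 10 of these in MGJ and 3 in MGJ2 had C1q between 10 and 20 per 10000. All others had C1q of 20 or more and so were C1q macrophages themselves, a part of that set chosen for monocyte markers. In MGJ the levels in these 106 barcodes lay between those of members and of all C1q macrophages for many genes. Apoe stood at 1604 CPM in members, 11099 in these barcodes and 17956 in C1q macrophages. Plac8 ran the other way, at 1883, 228 and 48.0 CPM, as did Vcan, at 401, 72.5 and 32.7 CPM, and Il1b, at 6677, 2312 and 1004 CPM. F13a1 did not follow this order, at 314, 323 and 237 CPM, and neither did Cd74, at 2826, 5074 and 3642 CPM. Ccl8 was at 1.36, 173 and 511 CPM. C1q divided these barcodes from members, so genes that go with it had to follow in part. From the other C1q macrophages they were divided mainly by the monocyte markers that the rule asks for. The order of Vcan, which is such a marker, was therefore set in part by the choice of barcodes. Genes that go with the markers may have followed too. Since most of these barcodes were also in the macrophage set, their place in between is no independent result.

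Mature neutrophils were barcodes without a UMI of Csf1r that held at least 3 of S100a8, S100a9, Retnlg, Cxcr2 and Csf3r and at least 100 S100a8 and S100a9 per 10000 (2714 in MGJ and 1817 in MGJ2). Against them 3134 of 8393 genes were higher in members of MGJ (37.3%) and 3159 of 9538 in MGJ2 (33.1%), and 793 (9.45%) and 1426 (15%) were lower. In both libraries 2063 of 7895 genes were higher (26.1%) and 599 lower (7.59%). MHC class II genes were higher in members, 6 of 6 tested in MGJ and 7 of 7 in MGJ2. H2-Ab1 stood at 1242 CPM against 28.2 in neutrophils of MGJ and at 1787 against 81.7 in MGJ2, ratios of 44.0 (39.0 to 49.9) and 21.9 (20.3 to 23.5). S100a4 was 26.1 (24.3 to 28.0) and 97.9 (85.5 to 113) times as high. Resident macrophage genes, low in members beside C1q macrophages, were called higher than in neutrophils in 9 of 10 and 8 of 9. Apoe was at 111 and 39.0 CPM in neutrophils. The 10 genes with the largest ratios in both libraries were Ly86, Ms4a8a, Pld4, Ms4a6c, Fcgr1, Ocstamp, Msr1, Spic, Flrt3 and Arl5c. Ly86, a partner of the toll-like receptor homologue Cd180, was 64.6 (39.3 to 114) and 72.2 (50.5 to 107) times as high, and Msr1, a scavenger receptor, 38.8 (28.5 to 54.2) and 187 (102 to 391) times. Fcgr1, the high-affinity IgG receptor, stood at 113 and 27.7 CPM in members and at 2.45 and 0.215 in neutrophils.

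All 9 neutrophil markers were lower in members than in neutrophils in each library, with median log2 ratios of -5.09 and -5.21, 4 of them being genes that also chose the neutrophils. Ly6g, the neutrophil antigen Gr-1, stood at 1.09 CPM in members against 145 in neutrophils of MGJ and at 5.20 against 215 in MGJ2, and without the members high in other lineages it had no UMI in MGJ and 0.244 CPM in MGJ2. Prok2, the stefins Stfa1, Stfa2 and Stfa3, Csta3, the keratins Krt81 and Krt83, Oscp1 and B230208H11Rik completed the 10 lowest. Stfa1 stood at 6.53 against 311 CPM in MGJ and at 1.28 against 99.3 in MGJ2. Inflammatory cytokine genes were divided, 3 of 12 higher and 4 lower in MGJ and 4 of 11 higher and 2 lower in MGJ2. Il1b and Ptgs2 were higher in members, Il1b at 6677 against 2209 CPM and at 3668 against 1509, and Ptgs2 at 2392 against 419 and at 1562 against 179. Ccl3 and Ccl4, chemokines of activated myeloid cells, were higher in neutrophils, Ccl3 at 6245 CPM against 851 in MGJ and at 796 against 160 in MGJ2, and Ccl4 at 6114 against 432 and at 637 against 91.2. Of the classical monocyte genes 4 and 5 of 15 were higher, 26.7% and 33.3% where all genes tested gave 37.3% and 33.1%, and 3 were lower in each library. Cell cycle genes were 2 higher and 1 lower of 12 in MGJ and none higher and 10 lower of 12 in MGJ2. The rule for mature neutrophils set no condition against cycling cells, so the name does not mean that all had stopped dividing. A UMI of Mki67 was held by 3.83% and 8.12% of thinned cells of that set, against 2.68% and 6.91% of thinned members.

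**Figure D3:**
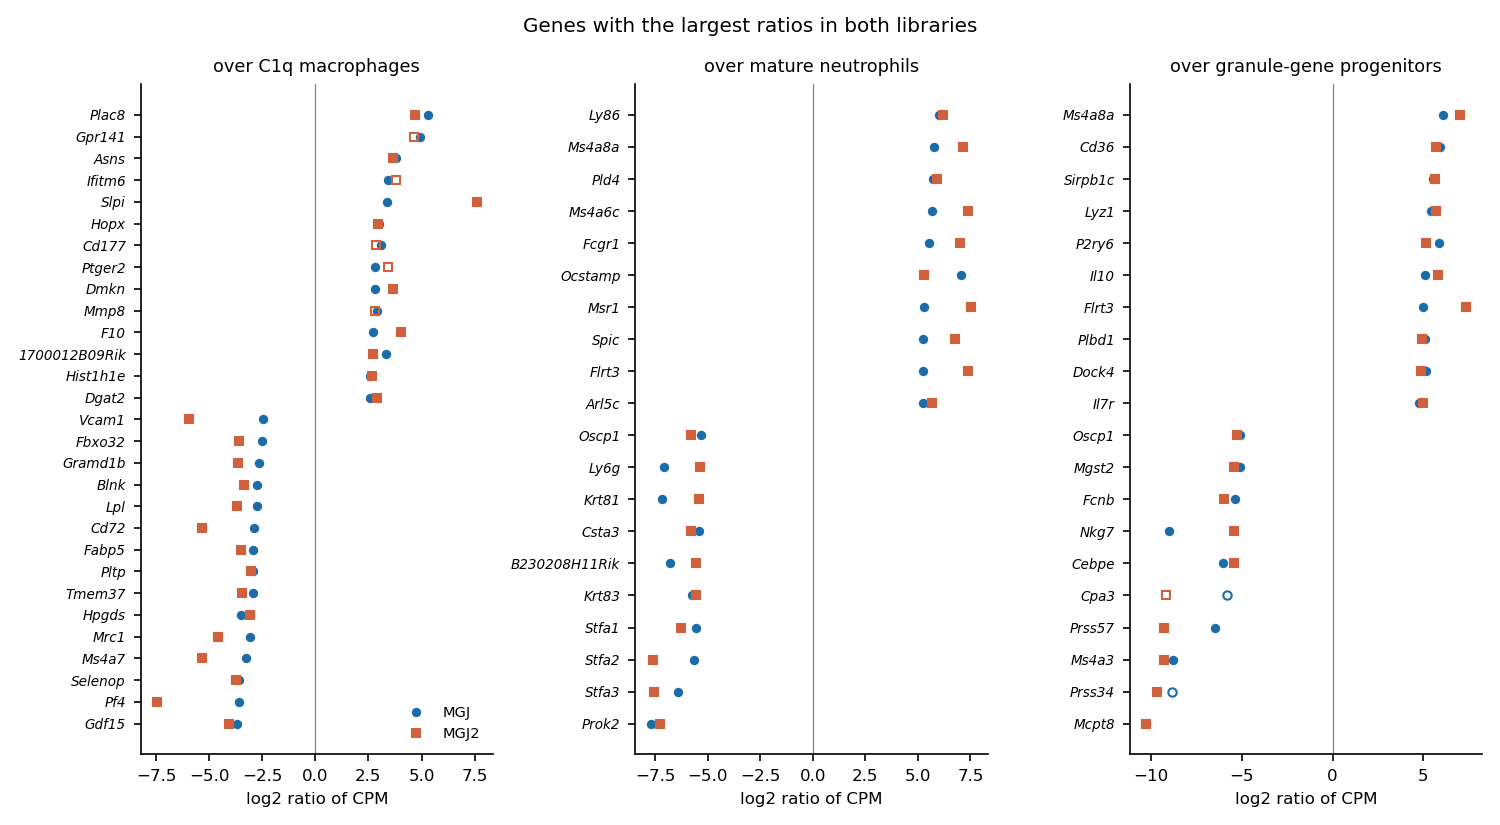
Log2 ratio of the members' CPM over C1q macrophages, mature neutrophils and granule-gene progenitors for the genes with the largest ratios in both libraries, circles for MGJ and squares for MGJ2, with open symbols for bounds. Plac8 was 39.2 and 25.9 times as high as in C1q macrophages, and Ms4a3 was at 0.00225 and 0.00162 of its progenitor level.

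Granule-gene progenitors were barcodes with at least 20 UMIs of Mpo, Elane, Prtn3 and Ctsg per 10000 and Col2a1 below 100 (98 in MGJ and 167 in MGJ2). Against them 1289 of 7156 genes were higher in members of MGJ (18%) and 1880 of 9720 in MGJ2 (19.3%), and 1168 (16.3%) and 3027 (31.1%) were lower. In both libraries 1035 of 6935 genes were higher (14.9%) and 1029 lower (14.8%). Cell cycle genes were lower in members, 11 of 12 in each library. Top2a stood at 64.5 CPM against 223 in progenitors of MGJ and at 46.4 against 296 in MGJ2, ratios of 0.290 (0.247 to 0.340) and 0.157 (0.143 to 0.172). Progenitor genes were lower in 4 of 5 and 7 of 7, among them Ms4a3, a marker of granulocyte and monocyte progenitors, at 1.63 CPM against 726 and at 1.28 against 792. Cebpe, the factor of late granule genes, was at 0.0149 (0.00639 to 0.0298) and 0.0227 (0.0177 to 0.0288) of the progenitor level. Mcpt8, Prss34, Cpa3, Nkg7, Fcnb, Prss57, Mgst2 and Oscp1 were also among the 10 lowest, and Mcpt8, Prss34 and Cpa3 are genes of basophils and mast cells, so the progenitor set held RNA of such cells.

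Genes of the mature monocyte were higher in members than in progenitors. All 6 tested MHC class II genes in MGJ and all 7 in MGJ2 were called higher, as were 10 of 12 and 11 of 11 inflammatory cytokine genes, 8 and 10 of 10 chemoattractant receptor and adhesion genes, and 10 and 11 of 15 classical monocyte genes. Fn1 was 4.02 (3.70 to 4.38) and 51.7 (43.9 to 61.4) times as high in members. Plac8 and Ly6c2 were instead higher in progenitors, Plac8 at 3142 and 2970 CPM and Ly6c2 at 1500 and 1608 CPM. The 10 largest ratios were those of Ms4a8a, Cd36, Sirpb1c, Lyz1, P2ry6, Il10, Flrt3, Plbd1, Dock4 and Il7r. Il10, an anti-inflammatory cytokine, stood at 152 CPM against 4.37 in MGJ and at 191 against 3.35 in MGJ2, ratios of 34.6 (18.1 to 76.2) and 57.0 (36.4 to 94.8). Il7r, the interleukin-7 receptor, was at 211 against 7.78 and at 196 against 6.17 CPM. Il10 was higher still in C1q macrophages, at 355 and 1080 CPM.

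Beside each other, members of MGJ2 were at least 2-fold higher than those of MGJ in 1055 of 9110 genes (11.6%) and members of MGJ in 714 (7.84%). With the members high in other lineages left out the counts were 1085 and 454. The genes furthest above in MGJ were Aspn, Col3a1, Postn, Tpm2, Serping1, Col5a3, Cxcl5, Fbln2, Mmp3 and Aebp1, several of them matrix genes of fibroblasts and the like. Col3a1 stood at 1058 CPM in members of MGJ and 1.21 in MGJ2, and at 1145 and 5.49 CPM in the neutrophils of the same libraries. Without the members high in other lineages it was at 90.0 and 1.22 CPM, so most of its UMIs sat in few members. The genes furthest above in MGJ2 were Ighd, Nkg7, Cstdc5, Dnajc27, Lrrc61, Kctd14, Gzma, Cyp27a1, Gimap4 and Abca6, all at 17.3 CPM or less. Ighd, an immunoglobulin heavy chain gene, and Gzma, a granzyme, are genes of lymphocytes. Cyp27a1, sterol 27-hydroxylase, stood at 1.36 and 17.3 CPM and was close to 0 in neutrophils, at 0.102 and 0.215 CPM. None of these 10 was among the 10 furthest above in MGJ2 without the members high in other lineages, which were Lpin1, Cd209a, H1fx, Kazald1, Gm26771, Themis2, Otud1, Flt3, Mgl2 and Gng4. Cd209a stood at 2.05 and 29.9 CPM there. In MGJ Nos2, Plpp3 and Arg1 then led, and Col3a1 and Postn were still among the 10 genes.

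Non-classical monocyte genes were at higher levels in MGJ2, 8 of 11 at least 2-fold higher there and 1 in MGJ, with or without the members high in other lineages. Cx3cr1 stood at 12.8 CPM (9.39 to 17.0) in MGJ and 131 CPM (124 to 137) in MGJ2, and at 1.02 and 3.98 CPM in neutrophils. When every cell was thinned to 2000 UMIs, 2.93% of members in MGJ and 18.5% in MGJ2 held a UMI of Cx3cr1 (6.33% and 54.9% before thinning), against 0.124% and 0.880% of neutrophils. Pou2f2 stood at 68.5 and 393 CPM, Itgal at 49.5 and 228 CPM, Ace at 6.80 and 34.0 CPM and Nr4a1, an orphan nuclear receptor that Ly6C-low monocytes require, at 32.1 and 98.8 CPM. Fcgr4 was the gene with the opposite order, at 50.9 and 19.0 CPM. Itgal followed the same order in neutrophils, at 63.5 and 231 CPM, whereas Pou2f2 did not, at 18.1 and 15.9 CPM. Of thinned C1q macrophages 2.39% in MGJ and 12.5% in MGJ2 held a UMI of Cx3cr1, and 4.59% and 6.25% one of Pou2f2. These had the order of the members, but with only 16 such cells in MGJ2. Itgal did not, at 4.77% and 0%, and Ace was found in none of them.

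Of the cytokine receptor genes 4 of 10 were at least 2-fold higher in members of MGJ2 and 1 in those of MGJ, and without the members high in other lineages 3 and 1. The chemoattractant receptor and adhesion genes gave 3 and 1 of 10, the pattern recognition genes 3 and none of 6, and the Fc receptor genes none and 2 of 4. Cxcr4 stood at 176 CPM (163 to 190) and 1338 CPM (1318 to 1358), and 28.8% and 87.5% of thinned members held a UMI of it. Neutrophils followed the same order, with Cxcr4 at 184 and 796 CPM and 27.1% and 72.3% of thinned cells, and so did C1q macrophages, at 320 and 600 CPM. Itga4, an integrin subunit of tissue entry, stood at 31.0 and 150 CPM, Il6ra at 26.1 and 109 CPM, Tlr2, a receptor for bacterial lipoproteins, at 367 and 1110 CPM, and Tgfb1 at 284 and 784 CPM. Fcgr1 and Fcgr2b, IgG receptors, were the Fc receptor genes higher in MGJ, at 113 and 27.7 CPM and at 176 and 45.7 CPM, as was Il1r2 among the cytokine receptors, at 175 and 82.6 CPM. Tgfb1 did not follow the order of Cxcr4 in neutrophils, at 148 and 134 CPM. Cd209a, a lectin of monocyte-derived dendritic cells, stood at 2.72 and 28.5 CPM and was found in 0.732% and 3.58% of thinned members and in no thinned neutrophil of either library, which allows up to 0.228% and 0.249%. Before thinning it was found in 1.46% and 8.69% of members and in 1 and 3 neutrophils, 0.0369% and 0.165% of them. Among thinned C1q macrophages Cd209a was found in none in MGJ and in 1 of 16 in MGJ2, 6.25%. Flt3 was at 2.72 and 28.6 CPM.

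Inflammatory cytokine genes were at higher levels in members of MGJ, 7 of 12 at least 2-fold and none in MGJ2, and 8 without the members high in other lineages. Cxcl2 stood at 17899 and 5339 CPM, Ccl3 at 851 and 160 CPM, Ccl4 at 432 and 91.2 CPM and Il1a at 243 and 90.4 CPM. Il1b, at 6677 and 3668 CPM, did not reach a ratio of 2. The neutrophils of MGJ were also higher in Cxcl2 (22091 and 4511 CPM), Ccl3 (6245 and 796 CPM) and Il1a (314 and 46.5 CPM), and what free RNA adds to the members' levels was not tested. Arg1 stood at 189 CPM (176 to 204) in MGJ and 2.11 CPM (1.40 to 3.05) in MGJ2. It was found in 12.0% and 0.325% of thinned members, and in 1.36% of thinned neutrophils of MGJ and none in MGJ2. Nos2, inducible nitric oxide synthase, stood at 25.6 CPM in MGJ and had no UMI in MGJ2, at least 113-fold higher, but the 2.68% of thinned members with a UMI in MGJ was close to the 2.53% of neutrophils. Pf4 stood at 158 and 3.09 CPM, with 45.6 and 0.108 CPM in neutrophils. Spp1 stood at 2995 and 290 CPM, and Ctsk at 196 and 38.4 CPM. These orders were not particular to the members. C1q macrophages, only 16 in MGJ2, had Arg1 at 404 and 0 CPM, Pf4 at 1945 and 553 and Spp1 at 5979 and 685. Of thinned C1q macrophages 21.3% in MGJ and none in MGJ2 held a UMI of Arg1, and 12.8% and none one of Ctsk. Classical genes were alike on this measure, 1 of 15 higher in each library, with Emilin2 the one higher in MGJ2 (253 and 612 CPM) and Hp, haptoglobin, the one higher in MGJ (571 and 244 CPM).

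**Figure D4:**
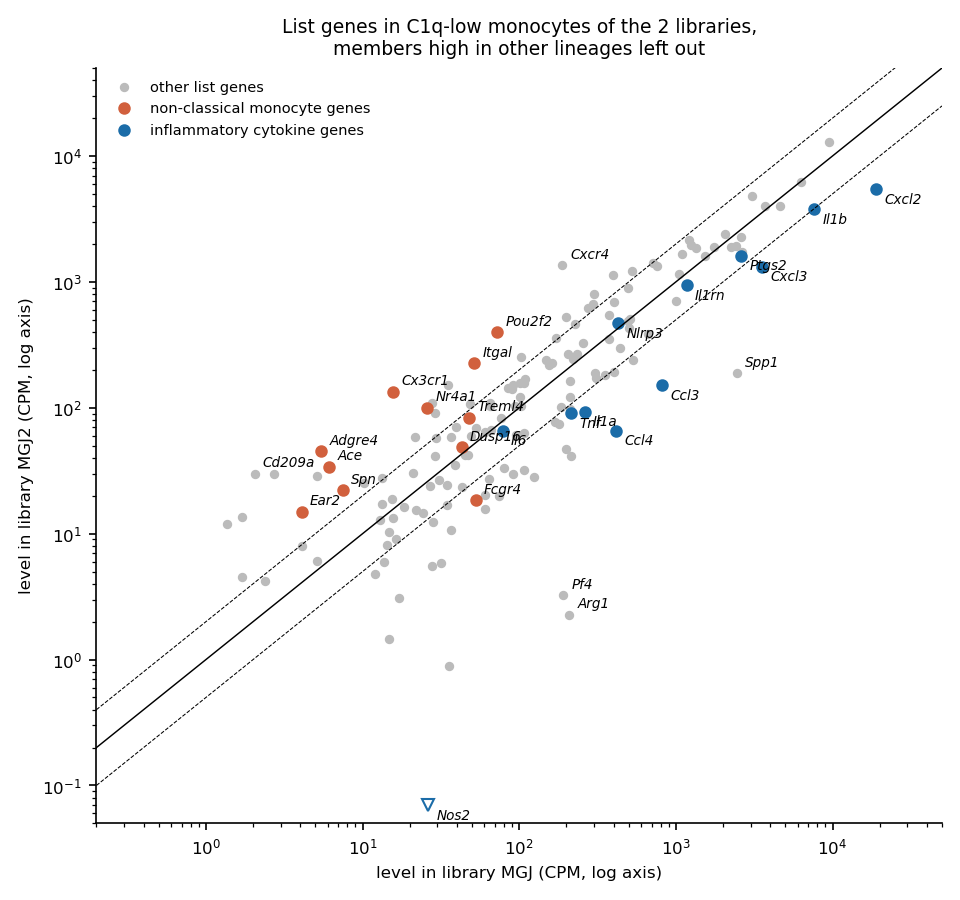
CPM of list genes in members of MGJ (x axis) and MGJ2 (y axis), both on log axes, with members high in other lineages left out; non-classical genes are orange, inflammatory cytokine genes blue, dashed lines mark a 2-fold difference and the open triangle is Nos2, without a UMI in MGJ2. Cx3cr1 and Pou2f2 lay above the upper line and Cxcl2 and Ccl3 below the lower one.

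Members were then ordered among themselves by MHC class II, so the medians of the ordering genes describe the split and are no result. The 25% highest in H2-Aa, H2-Ab1, H2-Eb1 and Cd74 together (103 of 411 and 308 of 1231) had a median of 237 and 302 of these UMIs per 10000, against 1.43 and 4.15 in the other members, at similar depth (median 6809 and 7362 UMIs in MGJ, 9397 and 9838 in MGJ2). Higher in them were 112 of 5654 genes in MGJ (1.98%) and 102 of 8418 in MGJ2 (1.21%), and lower were 430 (7.61%) and 569 (6.76%). In both libraries 22 of 5463 genes were higher (0.403%) and 111 lower (2.03%). H2-DMb1, which loads class II molecules, stood at 341 CPM in the high members and 27.2 in the others of MGJ and at 347 and 46.8 in MGJ2. Ccr7, the lymph node homing receptor, stood at 93.1 and 1.72 CPM in MGJ and 148 and 27.3 in MGJ2, ratios of 54.0 (22.1 to 171) and 5.43 (4.67 to 6.33). Apoe was 2.55 (2.42 to 2.69) and 2.57 (2.51 to 2.64) times as high in them, and Mrc1 3.26 (2.15 to 4.93) and 11.9 (8.15 to 17.9) times. Ramp3, Ly6a, Aif1, H2-DMa and C1qb, whose level the rule capped, were also among the 8 highest. Cd209a, chosen here after its values were seen, stood at 106 and 5.38 CPM in MGJ2.

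Cell cycle genes, and the rule genes Vcan and Chil3, were lower in the members high in MHC class II. Of the rule genes, Vcan stood at 187 and 458 CPM in MGJ and 100 and 419 in MGJ2, and Chil3 at 159 and 773 CPM and at 177 and 894. Ccr2 was at 112 and 106 CPM in MGJ and 164 and 119 in MGJ2, so it was not lower. Cell cycle genes were called lower in 9 of 10 and 9 of 11, Top2a with ratios of 0.0974 (0.0354 to 0.215) and 0.0440 (0.0189 to 0.0872), and Ube2c, Cdk1 and the histone genes Hist1h1b and Hist1h2ae were among the 8 lowest. The others of those 8 were the granule genes Ctsg, Ngp, Camp and Ltf. Neutrophil markers were called lower in 7 of 8 and 9 of 9, and erythroid markers in 3 of 3 in MGJ. Ngp stood at 23.3 and 516 CPM in MGJ and 35.7 and 754 in MGJ2, but with the members high in S100a8 and S100a9 left out its ratio was 1.44 and 1.10, and that of Camp 1.65 and 1.02, so neither gene was lower without those members. Top2a kept ratios of 0.110 and 0.0486 without them, and Ccr7 84.6 and 5.40. Il1b did not separate the members ordered this way, at 6463 and 6734 CPM in MGJ and 3822 and 3622 in MGJ2.

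**Figure D5:**
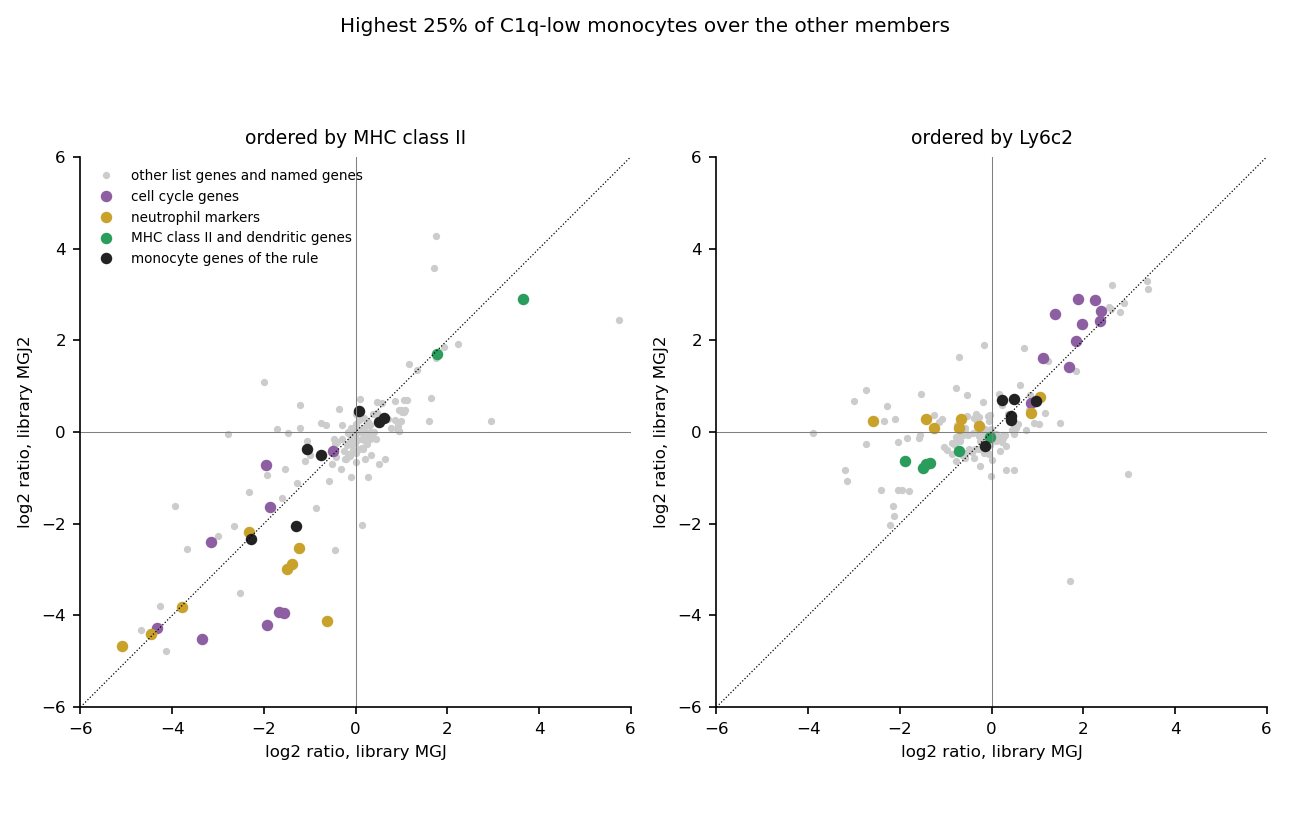
Log2 ratio of CPM in the 25% of members highest in MHC class II (left) or Ly6c2 (right) over the other members, MGJ on the x axis and MGJ2 on the y axis; cell cycle genes are purple, neutrophil markers gold, MHC class II and dendritic genes green and rule genes black, with a dotted line where both ratios are equal. Top2a was at 0.0974 and 0.0440 of the other members' level in the class II ordering, and 3.94 and 5.11 times as high in the Ly6c2 ordering.

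Ordered by Ly6c2 the members differed in cell cycle genes, while the medians of Ly6c2 itself only describe the split. The highest 25% had a median of 15.8 and 18.5 Ly6c2 UMIs per 10000, against 1.38 and 2.84 in the others. Higher in them were 217 of 5657 genes in MGJ (3.84%) and 298 of 8421 in MGJ2 (3.54%), lower were 420 (7.42%) and 79 (0.938%), and in both libraries 70 of 5466 were higher (1.28%) and 10 lower (0.183%). Cell cycle genes were called higher in 9 of 10 and 10 of 11. Top2a stood at 143 and 36.2 CPM in MGJ and 110 and 21.6 in MGJ2, ratios of 3.94 (3.02 to 5.16) and 5.11 (4.31 to 6.07), and Mki67, the antigen Ki-67, at 86.4 and 26.6 CPM and at 114 and 42.4. Pclaf, a partner of the replication clamp, was 6.18 (4.90 to 7.84) and 9.30 (7.82 to 11.1) times as high, and Spc24, Tipin, Tmpo, Tyms and Hist1h1b were also among the 8 highest. The primary granule genes Ctsg and Prtn3, whose sum the rule capped, led them, Prtn3 at 225 and 21.1 CPM in MGJ and 62.1 and 7.12 in MGJ2. The 8 lowest were Sox4, C1qb, Mmp13, Chd3, Dst, Tpm1, Vasn and C1qtnf6. In MGJ without the members high in other lineages Mmp13, Tpm1, Vasn and C1qtnf6 were not 2-fold lower, with ratios of 0.692, 0.502, 1.95 and 0.633. Markers of other lineages moved with this ordering in MGJ, erythroid markers higher in 3 of 3 with a median log2 ratio of 3.09, chondrocyte markers lower in 4 of 7 and neutrophil markers higher in 1 of 8 and lower in 3. In MGJ2 no erythroid marker was tested and none of 4 chondrocyte or 9 neutrophil markers was called. Without the members high in other lineages Top2a kept ratios of 3.87 and 7.25 and Mki67 of 3.62 and 2.89. In MGJ the fibroblast and osteoblast markers were lower in 7 of 7, in MGJ2 in none of 3, and Col1a1 went from a ratio of 0.151 to 0.853 in MGJ without the members high in other lineages.

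Ordered by Il1b, fewer genes differed in both libraries. Higher were 52 of 5657 genes in MGJ (0.919%) and 33 of 8421 in MGJ2 (0.392%), lower were 567 (10%) and 219 (2.6%), and in both libraries 5 of 5466 were higher (0.0915%) and 34 lower (0.622%). The 5 were Il1a, Ptgs2, Tnf, Ptgs2os, an RNA beside Ptgs2, and Ccr7. Il1a, the sister cytokine, stood at 601 CPM in the high members and 149 in the others of MGJ and at 183 and 60.5 in MGJ2, ratios of 4.04 (3.54 to 4.62) and 3.02 (2.69 to 3.39). Tnf was 3.89 (3.37 to 4.49) and 2.25 (1.999 to 2.53) times as high, and Ptgs2 2.33 (2.23 to 2.43) and 3.06 (2.97 to 3.14) times. The 8 lowest were Ctsk, Retnlg, Fabp4, Mmp9, Angptl2, Fosb, Ngp and Mdk, of which Retnlg, Mmp9 and Ngp are neutrophil genes. Neutrophil markers were called lower in 6 of 8 and 6 of 9. Without the members high in other lineages Ngp had ratios of 1.21 and 0.759 and was not 2-fold lower in either library, while Retnlg had 0.259 and 0.709 and Mmp9 0.0684 and 0.362. Fabp4 then had 0.422 and 0.517, and Angptl2 0.640 in MGJ, where Mdk was no longer lower. Ctsk stood at 13.1 and 243 CPM in MGJ and 4.61 and 49.4 in MGJ2, with ratios of 0.0348 and 0.0859 without the members high in other lineages. Ly6c2 was not ordered with Il1b, with ratios of 0.982 and 0.801.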

How the data were processed

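The UMI counts deposited by the authors came from 10x Chromium 3' libraries. The matrix headers name Cell Ranger 4.0.0 and the submitters' processing notes GRCm38 and Seurat, and the annotation is not given in the sources used here. The extraction protocol aimed at 5000 cells a library. Of 22304 barcodes, 835 in MGJ and 203 in MGJ2 were left out. Counts were summed over the cells of a set and divided by all their UMIs (CPM), with exact Poisson intervals, and ratios have exact conditional binomial intervals. A set without a UMI was given 3 counts and the ratio is then a bound. Genes named are those with the largest ratio in the same direction in both libraries (15 against C1q macrophages, 10 against the other sets, 10 between libraries, 8 within members), the rule genes, and members of gene lists with most UMIs. The members and lists were chosen with earlier results of these data known. The 15 rule and ceiling genes were left out of counts between sets. Both 2-fold calls and intervals were tested on simulated counts, where the 2-fold rule alone also called unchanged genes against the few C1q macrophages of MGJ2. Those counts were Poisson draws, as the intervals assume, so spread between cells was not tested. Python 3.11.15, numpy 2.4.6, scipy 1.17.1, pandas 2.3.3 and matplotlib 3.10.9 were used. Some genes are not reported here.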

Additional observations from a re-analysis of the deposited data

How the results depend on the processing

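The share of kept barcodes that were members moved with the thresholds of the rule. In MGJ it was 4.82% with Csf1r at 1 UMI or more, 1.66% with 3 or more, 4.31% with 2 or more markers, 2.19% with 4 or more and 2.67% without the members high in other lineages, and in MGJ2 18.0%, 12.8%, 17.9% and 12.3% for the first 4 of these. Genes higher than in C1q macrophages of MGJ (383) were 611 without a ceiling on Col2a1, 222 without barcodes with markers of another lineage, 158 with cells thinned to 2000 UMIs, 630 with a minimum of 20 UMIs and 170 with one of 200. Genes lower there (745) were 436 with 2 or more markers, 360 after thinning and 337 with the minimum of 200. In MGJ2 the higher genes (1061) were 468 after thinning and 586 with the interval, and the lower genes (1476) 734 after thinning, 555 with the minimum of 200 and 957 with the interval. Genes lower than in neutrophils of MGJ (793) were 1228, and genes higher in members of MGJ beside MGJ2 (714) were 454, without the members high in other lineages. In the same setting the genes called in both libraries within members went from 111 to 58 lower for MHC class II, from 10 to 5 lower for Ly6c2, and from 5 to 8 higher and from 34 to 12 lower for Il1b. The cause was not tested, except that thinning, the minimum of 200 UMIs and leaving out barcodes with markers of another lineage leave fewer UMIs or genes to test. The last took out 213 of 411 members and 255 of 547 C1q macrophages in MGJ, and 593 of 1231 members in MGJ2. Log2 ratios over C1q macrophages were followed only for named and list genes already called in a library, counted again for each setting. Of these log2 ratios 3233 kept their direction and call, 137 kept the direction only and 11 changed direction. Genes not called at first were outside the tally and the settings shared many cells, so it does not measure how stable the lists were. With thinning in MGJ2 Dusp16 was at -0.29, Ccl3 at -0.27 and Tnfrsf1a at -0.14. With C1q macrophages at 50 or more per 10000, of which MGJ2 held 7, Ciita was at 0.25, Spp1 at 0.019 and Hk2 at 0.72 there. Without barcodes with markers of another lineage Acp5 was at 1.52 in MGJ2 and Top2a at -0.62 in MGJ, and with 2 or more markers Dcstamp was at 1.11 and Arg1 at 0.035 in MGJ. Bmp2 was at -0.66 in MGJ without the members high in other lineages. Leaving out members high in neutrophil genes or in other lineages, and asking for the interval, were alternatives chosen after seeing the data. Against other sets the former changed the members only, and the comparator was kept whole. Where a setting left a gene under the minimum of UMIs it gave no value. No paired analysis was possible because the labels give no group and each library is a single sample. With 16 C1q macrophages and a median of 6 UMIs per tested gene there, depth limits the ratios in MGJ2.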
